A study of Saccharomyces cerevisiae with 6 samples.

Results

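The plasma membrane amino acid permeases described here are 10 genes of the budding yeast Saccharomyces cerevisiae, GAP1, AGP1, BAP2, BAP3, TAT1, TAT2, DIP5, CAN1, LYP1 and HIP1, chosen by name and found on the array through their systematic names. All 10 had a probe among the 6256 genes on the array, and all 10 were among the 5948 genes tested. Transcripts were measured in F3, a single mutant selected by evolutionary engineering for resistance to sulfur dioxide, and in its reference strain, whose name and genotype are not given in the sources used here. By the series design each strain was grown as 3 cultures in yeast minimal medium at 30 °C and 150 rpm to early exponential phase. The growth label names an overnight culture in rich medium, which is taken here, without a stated source, as the preculture. No added sulfite is stated, and each culture was read on 1 one-colour Agilent array. The comparison asks how the genes for amino acid uptake differ between the resistant strain and its reference.

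Yeast takes up amino acids through a family of related permeases that differ in breadth and in control. The general permease Gap1 and other nitrogen-scavenging transporters are transcribed through the GATA factors Gln3 and Gat1 when preferred nitrogen sources are scarce, a control known as nitrogen catabolite repression. Several narrower permeases are instead induced by amino acids outside the cell, which the plasma membrane sensor Ssy1, with Ptr3 and Ssy5, reports to the transcription factors Stp1 and Stp2. AGP1 and DIP5 are known to respond to both controls, while BAP2, BAP3, TAT1 and TAT2 are placed here as amino-acid-induced, GAP1 as nitrogen-regulated, and the basic and histidine permeases CAN1, LYP1 and HIP1 in neither class.

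Levels are given as log2 processed signal minus the array's own 75th percentile, which is what higher and lower refer to, and levels of different genes are not compared with each other. The 75th percentile lay between 8314 and 9534 units of intensity in F3 and between 2791 and 4973 in the reference. Scaling to 7 spike-in RNAs instead raised the median difference of all genes by 1.71, to 1.76, and gave 5092 genes as higher and 255 as lower in F3 by limma, or 95.23% higher among the called genes against 52.02% by the 75th percentile. The mean log2 signal of these spike-ins was 11.7, 12.3 and 13.2 on the 3 reference arrays and between 11.7 and 11.9 on the F3 arrays, and all genes share the error of that scaling. Limma gave every gene the same standard error of 0.30 in that setting, with no allowance for its estimation from 3 arrays a strain. Calls with spike-in scaling are therefore given for each permease from its own spread on 4 degrees of freedom, a choice made after seeing the data, by which 4760 genes were higher and 173 lower. The F3 arrays shared 1 slide and the reference arrays 2 others, and the strains were scanned on different days. Strain, slide and scan day therefore cannot be told apart. The software's marks for a good spot grid and for a net signal of the negative controls within its range were unset on each F3 array and set on each reference array.

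Of the 10 permeases 6 fell in F3, 2 rose and 2 did not pass the test (limma, adjusted p under 0.05). Over all genes tested 79.7% were called, with 38.2% of the tested genes lower and 41.5% higher. The fall was at least 2-fold for 5 permeases, BAP3, TAT2, BAP2, HIP1 and GAP1, against 16.2% of tested genes. The 2 called higher were AGP1 and DIP5, both by less than 2-fold, where 16.6% of tested genes rose by at least 2-fold. DIP5 passed the filter on dim probes through its F3 arrays, since it was above background on only 2 reference arrays. It turned to −0.47 with normexp background correction, which leaves AGP1 as the 1 permease called higher. The other 9 were called lower with that correction, where 2489 of the 5948 tested genes were lower and 2129 higher. With spike-in scaling and each gene's own spread 5 permeases (AGP1, DIP5, TAT1, CAN1 and LYP1) were called higher, against 80.0% of tested genes, and 0 lower at an adjusted or an unadjusted p under 0.05, against 2.91% of tested genes. Limma's moderated fit of the same values called 6 higher, with GAP1 added, and 1, BAP3, lower, against 85.6% and 4.29% of tested genes. The median difference of the 10 was −0.94 and turned to 0.77 with spike-in scaling, beside a median of 0.05 and 1.76 for all genes tested. For 9 of the 10 the F3 arrays and the reference arrays held separate ranges, as did 82.4% of tested genes, and the exception was TAT1.

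**Figure D1:**
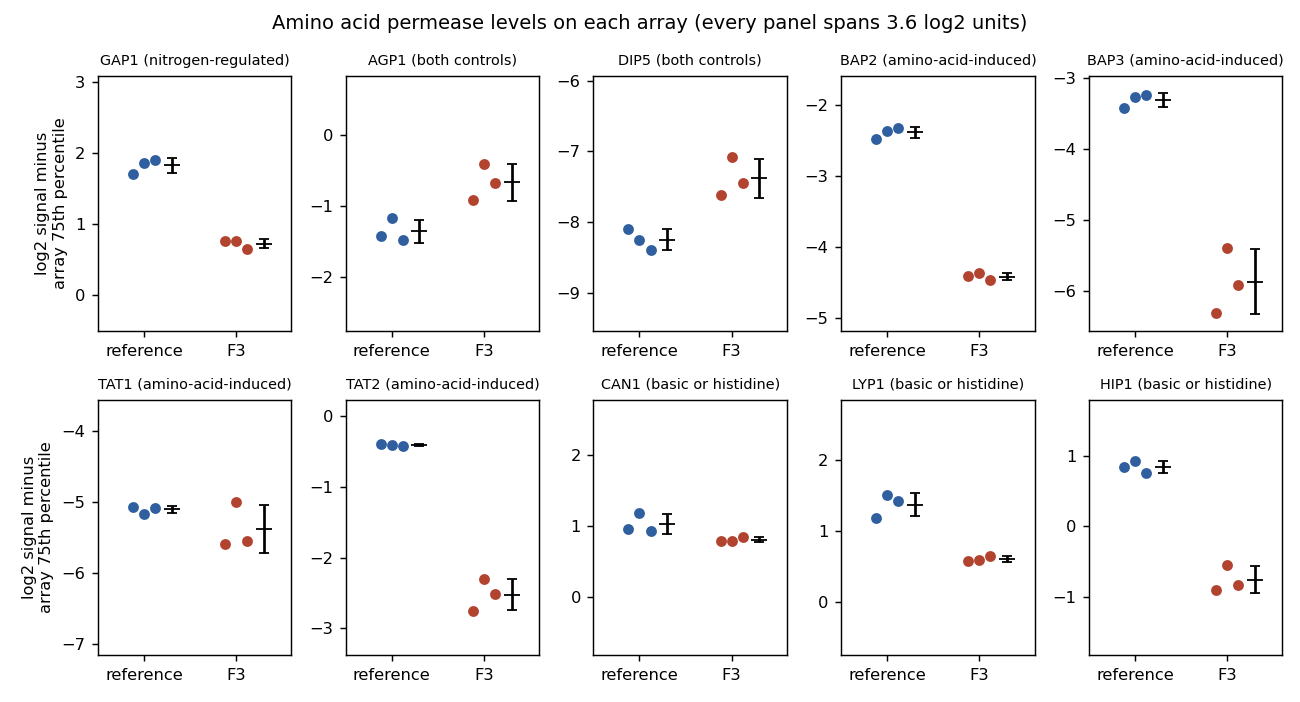
Level of each permease on every array (log2 processed signal minus the array's 75th percentile), with reference arrays in blue, F3 arrays in red and the mean with SD of 3 arrays in black; every panel spans the same range of log2 units at its own height. By this scaling GAP1, BAP2, BAP3, TAT2, LYP1, HIP1 and, by a small gap, CAN1 sit lower in F3, AGP1 and DIP5 sit higher, and TAT1 overlaps, while with spike-in scaling GAP1, LYP1, HIP1 and CAN1 have higher means in F3.

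GAP1 (YKR039W), the general amino acid permease and the member under nitrogen control, had levels of 0.76, 0.76 and 0.64 in F3 and 1.71, 1.86 and 1.90 in the reference. Every F3 value lay below every reference value. The means were 0.72 ± 0.07 and 1.82 ± 0.10 (SD, n = 3 each), and the difference of −1.10 ± 0.08 (SE, limma adjusted p = 3.08e-06) is 2.15-fold lower in F3, or 0.61 above the reference with spike-in scaling, where it was not called from its own spread (95% interval from −0.07 to 1.28, adjusted p = 0.0785 over all genes with no limma moderation, against 0.045 with it).

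AGP1 (YCL025C), a low-affinity permease of broad range and one of those known to answer to both nitrogen and external amino acids, went the other way. It had levels of −0.92, −0.41 and −0.68 in F3 and −1.42, −1.17 and −1.48 in the reference. Its F3 values all lay above the reference values, by a difference of 0.69 ± 0.14 (SE, limma adjusted p = 0.0017), or 1.61-fold, and it was higher under each of the other scalings and background corrections tried, between 0.64 and 2.40.

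DIP5 (YPL265W), the permease for the acidic amino acids glutamate and aspartate, was dim on every array. Its level was −7.61, −7.08 and −7.45 in F3 and −8.09, −8.24 and −8.39 in the reference, a difference of 0.86 ± 0.14 (SE, limma adjusted p = 5.09e-04). All 6 of its F3 spots were well above background, but only 2 of its 6 reference spots were, on 2 of the 3 reference arrays. With normexp background correction the direction turned, to −0.47 (adjusted p = 0.0485), so whether DIP5 was higher or lower depends on how background was removed. The median brightness of its spots, before any subtraction, was 157.5 to 184 intensity units in F3 and 49.5 to 60.5 in the reference, while the dimmest 1% of gene spots on an array reached 108 to 109 units in F3 and 36.5 to 44 in the reference. The dimmest spots were thus also brighter on the F3 arrays, where the mark for the negative controls was unset, and the part of this in the DIP5 result was not tested.

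The branched-chain permeases BAP2 (YBR068C) and BAP3 (YDR046C), which import leucine, isoleucine and valine, were lower in F3. BAP2 had levels of −4.41, −4.37 and −4.47 in F3 and −2.47, −2.36 and −2.32 in the reference, the tightest F3 values among the amino-acid-induced members. Its difference of −2.04 ± 0.08 (SE, limma adjusted p = 5.84e-08) is 4.10-fold and was −0.32 with spike-in scaling, where it was not called (adjusted p = 0.273 from the gene's own spread, with no limma moderation). BAP3 had levels of −6.31, −5.39 and −5.91 in F3 and −3.43, −3.27 and −3.23 in the reference. The 3 F3 values spread widely, with an SD of 0.46 against 0.10 in the reference, and still lay below every reference value. Its difference of −2.56 ± 0.20 (SE, limma adjusted p = 4.01e-06), 5.90-fold, was the lowest of the 10, and was −0.85 with spike-in scaling. There it was not called from its own spread (95% interval from −1.84 to 0.14, adjusted p = 0.0873), while limma's moderated fit called it lower (adjusted p = 0.00481).

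TAT2 (YOL020W), the high-affinity tryptophan permease, had levels of −2.75, −2.31 and −2.51 in F3. The reference values, −0.40, −0.42 and −0.43, were almost identical to each other and above all F3 values. The difference was −2.11 ± 0.11 (SE, limma adjusted p = 3.62e-07), 4.31-fold, and −0.40 with spike-in scaling, where it was not called (adjusted p = 0.272 from its own spread, with no limma moderation).

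TAT1 (YBR069C), a permease for tyrosine, tryptophan and branched-chain amino acids, was the amino-acid-induced member that was not called. Its levels were −5.59, −4.99 and −5.55 in F3 and −5.07, −5.16 and −5.08 in the reference. F3 replicate 2 lay above all reference values and the other F3 arrays below them. The difference was −0.28 ± 0.15 (SE, limma adjusted p = 0.122), with a 95% interval from −0.62 to 0.07. It passed the test as lower without F3 replicate 2 (−0.47, adjusted p = 0.0011), with normexp correction (−0.57, adjusted p = 0.00935), with quantile normalization (−0.69, adjusted p = 5.42e-04) and in the authors' deposited processed values (−0.66, adjusted p = 7.19e-04), and was above the reference with spike-in scaling (1.43, adjusted p = 0.0148 from its own spread). TAT1 and BAP2 are next to each other on chromosome II with no protein-coding gene between them, and their 95% intervals for the difference did not overlap.

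Among the permeases for basic amino acids and histidine, HIP1 (YGR191W), the high-affinity histidine permease, changed most. Its levels were −0.90, −0.54 and −0.82 in F3 and 0.84, 0.92 and 0.75 in the reference, with no overlap, a difference of −1.59 ± 0.11 (SE, limma adjusted p = 1.58e-06) or 3.01-fold. With spike-in scaling it was 0.12 above the reference and not called (adjusted p = 0.745 from its own spread). LYP1 (YNL268W), the lysine permease, had levels of 0.57, 0.60 and 0.65 in F3 and 1.19, 1.51 and 1.43 in the reference. These groups did not overlap either, and the difference was −0.77 ± 0.10 (SE, limma adjusted p = 8.14e-05), or 0.94 with spike-in scaling (adjusted p = 0.0347 from its own spread).

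CAN1 (YEL063C), the arginine permease, lay at the threshold. Its levels were 0.79, 0.80 and 0.84 in F3 and 0.96, 1.19 and 0.93 in the reference, which do not overlap although the gap between the nearest arrays is small. The difference was −0.22 ± 0.09 (SE, limma adjusted p = 0.0501), with a 95% interval from −0.42 to −0.01, and 1.49 with spike-in scaling (adjusted p = 0.0156 from its own spread). It passed the test without reference replicate 1 (adjusted p = 0.0499), without reference replicate 3 (adjusted p = 0.0335), with normexp correction (adjusted p = 0.0136), with median scaling (adjusted p = 0.0499) and when genes had to be above background on all 6 arrays (adjusted p = 0.0466). It moved away from the threshold without reference replicate 2, the highest reference array (−0.13, adjusted p = 0.158), with quantile normalization (−0.15, adjusted p = 0.16), in the authors' deposited processed values (−0.14, adjusted p = 0.171) and with a replicate block (adjusted p = 0.0845), and limma's adjusted p without any 1 F3 array was between 0.0834 and 0.124.

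**Figure D2:**
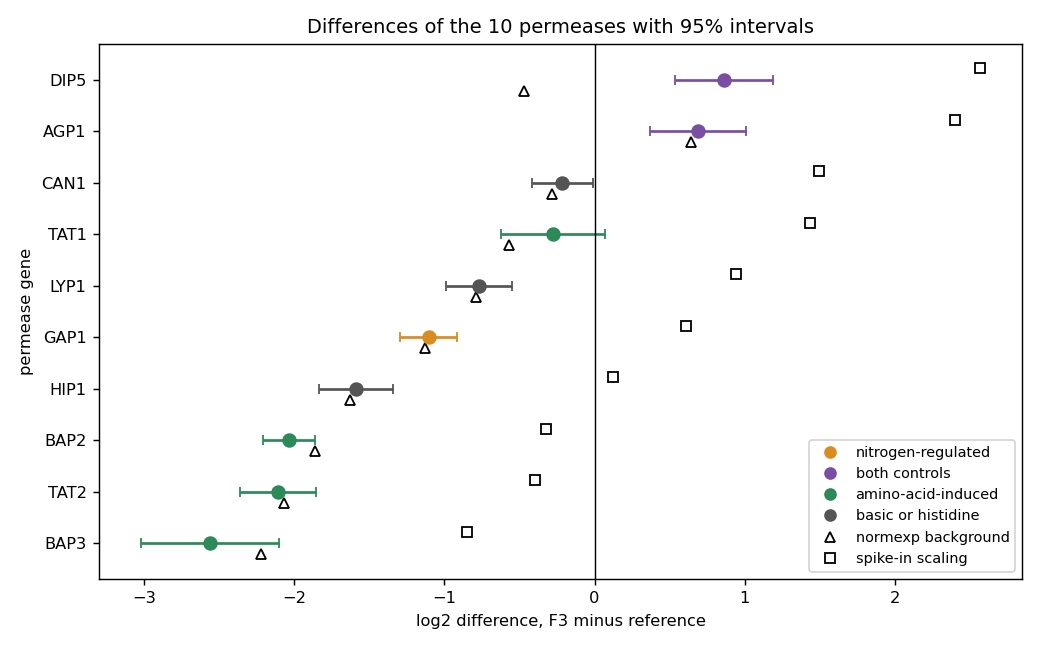
Log2 difference (F3 minus reference) of each permease with its 95% interval, coloured by class, with the difference after normexp background correction (triangles) and with spike-in scaling (squares). Spike-in scaling moves each gene to the right by the same amount, which leaves BAP2, TAT2 and BAP3 below 0, and DIP5 is the gene whose triangle lies on the other side of 0.

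In order of difference the permeases ran from DIP5 (0.86) through AGP1, CAN1, TAT1, LYP1, GAP1, HIP1, BAP2 and TAT2 to BAP3 (−2.56). A factor that shifts all genes of an array alike cancels in this order, but background treatment does not. DIP5, mostly not above background in the reference, fell to −0.47 with normexp correction, below AGP1 (0.64) and CAN1 (−0.28) in that setting. The 95% intervals of neighbours in the order were separate between AGP1 and CAN1, between GAP1 and HIP1 and between HIP1 and BAP2, and overlapped for the other 6 pairs of neighbours. The intervals of BAP2, TAT2 and BAP3, the 3 lowest, all overlapped each other.

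Read by class, the amino-acid-induced permeases did not move as a block. Of the 6, BAP2, BAP3 and TAT2 fell, AGP1 rose, TAT1 was not called, and DIP5 was called higher in a direction that turned with normexp correction. Their median was −1.16 (0.56 with spike-in scaling), and without DIP5 it was the value of BAP2, −2.04 (−0.32 with spike-in scaling). Of the 3 with nitrogen control, GAP1 fell, AGP1 rose, and DIP5 has the limit just given. Their median was the value of AGP1, 0.69 (2.40 with spike-in scaling), and it depended on DIP5. With normexp correction GAP1 was at −1.13, AGP1 at 0.64 and DIP5 at −0.47, which made DIP5 the middle value. With spike-in scaling all 3 lay above the reference, GAP1 at 0.61, AGP1 at 2.40 and DIP5 at 2.57, and GAP1 was not called from its own spread. AGP1 and DIP5 belong to both classes, so GAP1 is the sole permease here under nitrogen control alone, and no test was run between the classes.

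Setting each permease against GAP1 on the same array removes the scaling between arrays. Relative to GAP1 and to the mean of the reference arrays, BAP2 stood at −0.96, −0.92 and −0.91 on the F3 arrays, and its reference arrays were within 0.03 of their mean. BAP3 stood at −1.93, −1.02 and −1.42, and TAT2 at −1.26, −0.83 and −0.92. For these 3 amino-acid-induced genes every F3 array lay below every reference array, so they were lower in F3 relative to GAP1. The ratio does not show whether these genes themselves fell, GAP1 rose or both moved. AGP1 moved against GAP1 by 1.51, 2.02 and 1.86, and TAT1 by 0.58, 1.17 and 0.73. DIP5 stood at 1.96 ± 0.27 (SD, n = 3) relative to GAP1, subject to the dependence on background given above.

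**Figure D3:**
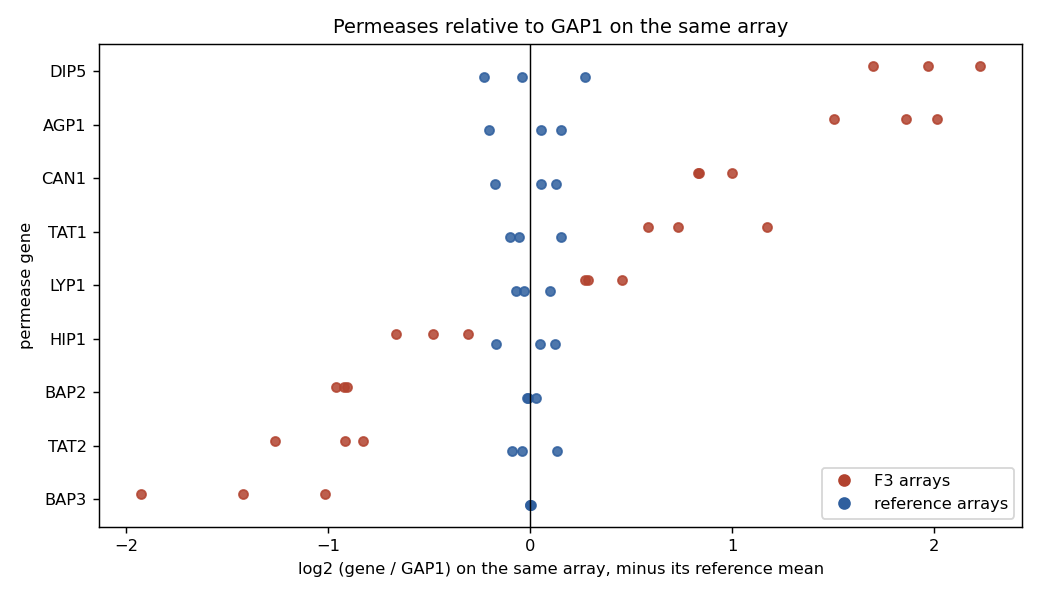
Log2 ratio of each permease to GAP1 on the same array, minus the mean of that ratio over the reference arrays, with F3 arrays in red and reference arrays in blue. BAP3, TAT2, BAP2 and HIP1 lie below their reference arrays and LYP1, TAT1, CAN1, AGP1 and DIP5 above, without overlap.

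F3 replicate 2 had the highest F3 value for 8 of the 10 permeases, all except CAN1 and LYP1, against 41.1% of all tested genes. Leaving out any 1 array changed the number of permeases called to between 8 and 9, with 2 higher each time. Over these fits the difference of BAP3 ranged from −2.80 to −2.34, that of AGP1 from 0.56 to 0.82, and that of GAP1 from −1.16 to −1.06.

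Other plasma membrane permeases for amino acids and related compounds went both ways, with 5 of 10 higher, 4 lower and 1 not called. These counts are near the shares over all tested genes, 41.5% higher and 38.2% lower. The median of the list was 0.33 (2.04 with spike-in scaling). GNP1, the glutamine permease and paralog of AGP1, had levels of −4.80, −3.74 and −4.36 in F3 and −1.90, −2.03 and −1.72 in the reference. It fell by 2.42 on the log2 scale (SE 0.23, limma adjusted p = 1.50e-05), while AGP1 rose. With spike-in scaling GNP1 was −0.71 and not called from its own spread (adjusted p = 0.13). SAM3, which imports S-adenosylmethionine, and MUP1, the high-affinity methionine permease, were also lower, at −4.03 and −2.86 (−2.32 and −1.15 with spike-in scaling). From its own spread with spike-in scaling SAM3 was called (adjusted p = 0.00393) and MUP1 was not (adjusted p = 0.0523). AGP2, a plasma membrane protein that controls polyamine and carnitine uptake, rose by 3.19 (SE 0.09, limma adjusted p = 1.49e-08), from between −5.73 and −5.61 in the reference to between −2.63 and −2.39 in F3. PUT4, the proline permease, rose by 1.37 (SE 0.16), and AGP3 by 1.11 (SE 0.10). The rise of AGP3 was smaller with normexp correction (0.74), quantile normalization (0.83) and in the authors' deposited values (0.85). ALP1, a relative of CAN1 that lies 1 protein-coding gene away from LYP1, fell by 0.69 (SE 0.15), or lay 1.02 above the reference with spike-in scaling. It was dim, with 5 of its 6 F3 spots well above background.

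The other known targets of the amino acid sensor on the list, GNP1, MUP1 and PTR2, were all lower by at least 2-fold, 3 of 3, where 16.2% of tested genes were, around a median of −2.42 (−0.71 with spike-in scaling). PTR2, the transporter of di- and tripeptides, was dim in F3, with processed signals between 40.0 and 73.4 units of intensity. Its difference was −1.83 (SE 0.18, limma adjusted p = 1.71e-05), or −1.44 with normexp correction. At −0.12 PTR2 was no longer called when scaled to the spike-ins. With that scaling GNP1 and MUP1 were not called from their own spread either (adjusted p = 0.13 and 0.0523). Limma's moderated fit called both lower (adjusted p = 0.0191 and 1.36e-04). Among 8 other transporters under nitrogen control, 3 were higher, 3 lower and 2 not called, where 41.5% of tested genes were higher and 38.2% lower. Their median difference was 0.01 (1.72 with spike-in scaling). PUT4 and the allantoin permease DAL4 (1.04) rose by at least 2-fold. DAL4 stayed called but fell short of 2-fold with normexp correction (0.80), quantile normalization (0.86) and in the authors' deposited values (0.87). MEP3, an ammonium permease, fell by 1.08, MEP2, a high-affinity ammonium permease and sensor, by 0.46, and the allantoate permease DAL5 by 0.60 (0.63, 1.25 and 1.11 with spike-in scaling). UGA4, for gamma-aminobutyrate, was 0.43 higher, a call lost with normexp correction (0.11), quantile normalization (0.07) and in the authors' deposited values (0.10).

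Transcripts of the sensor pathway itself differed by between −0.97 and 1.12. All 12 were called, 4 higher and 8 lower, where 79.7% of tested genes were called, 41.5% higher and 38.2% lower, and the median was −0.35 (or 1.36 when scaled to the spike-ins). SSY1, the sensor, was −0.32 and SSY5, its protease, −0.38, while PTR3, the adaptor between them, was 0.25. The transcription factors differed in sign, STP1 at 0.27 and STP2 at −0.44, and their coactivator DAL81 was at −0.52. With spike-in scaling the lower genes turned positive, SSY1 at 1.39, SSY5 at 1.33, STP2 at 1.27 and DAL81 at 1.19. GRR1 (−0.75) and the kinases YCK1 (−0.33) and YCK2 (−0.97), which act in the signal to Ssy5, were lower, at 0.96, 1.38 and 0.74 with spike-in scaling. ASI1 (0.52) and ASI2 (1.12) were higher and ASI3 (−0.37, or 1.34 with spike-in scaling) lower. These encode the inner nuclear membrane complex that keeps unprocessed Stp1 and Stp2 from acting.

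The GATA factors and their partners differed modestly, with 1 of 5 higher, 2 lower and 2 not called (median −0.19, or 1.52 with spike-in scaling). Over all tested genes 41.5% were higher and 38.2% lower. The activators went in opposite directions, GLN3 at 0.40 (SE 0.09, limma adjusted p = 0.00238) and GAT1 at −0.65 (SE 0.08, limma adjusted p = 6.35e-05; 1.06 with spike-in scaling). URE2, which holds Gln3 in the cytoplasm, was at −0.35 (1.36 with spike-in scaling). The repressors DAL80 (0.35, adjusted p = 0.130) and GZF3 (−0.19, adjusted p = 0.120) did not pass limma's test. DAL80 changed sign with normexp correction, quantile normalization and in the authors' deposited values. GZF3 passed as lower with quantile normalization (−0.26, adjusted p = 0.0368) and in the authors' deposited values (−0.25, adjusted p = 0.0406), and was 1.52 above the reference with spike-in scaling, as DAL80 was by 2.06.

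GCN4, the activator of amino acid synthesis genes under starvation, fell from levels of 3.59, 3.47 and 3.43 in the reference to 1.57, 1.69 and 1.66 in F3, a difference of −1.86 (SE 0.08, limma adjusted p = 1.06e-07) that was lost when scaled to the spike-ins (−0.15). That control pathway had 4 of 5 genes lower and 1 higher (median −0.39, or 1.32 with spike-in scaling), where 38.2% of tested genes were lower and 41.5% higher. GCN3, a subunit of a translation initiation factor, was at −0.97 (0.74 with spike-in scaling), and GCN1 was the gene that rose (0.54).

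Genes for the delivery and removal of permeases were 6 of 16 higher, 4 lower and 6 not called, around a median of 0.18 (1.89 with spike-in scaling). Over all tested genes 41.5% were higher and 38.2% lower. SHR3, the endoplasmic reticulum chaperone that amino acid permeases need to leave that compartment, had levels of −0.24, −0.30 and −0.25 in F3 and 0.83, 0.97 and 1.21 in the reference. It fell by 1.26 on the log2 scale (SE 0.10, limma adjusted p = 4.87e-06), and was 0.45 above the reference and not called with spike-in scaling. LST4, which acts in the sorting of Gap1 to the cell surface, fell by 1.34 (SE 0.10), with a spike-in scaled value of 0.38 that was not called. Higher were LST8 (0.85), a subunit of the TOR kinase complexes, the arrestin-related adaptor ROD1 (0.79) and NPR1 (0.64), a kinase that stabilises permeases at the plasma membrane.

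The 10 vacuolar amino acid transporters tested had 3 members higher, 6 lower and 1 not called, where 41.5% of tested genes were higher and 38.2% lower. Their median was −0.39 (1.32 with spike-in scaling). VBA3 stayed at background level on all arrays and was not tested. AVT6, which exports acidic amino acids from the vacuole, rose by 1.63 (SE 0.08) and RTC2, a vacuolar transporter of basic amino acids, by 1.26 (SE 0.11). YPQ1 and VBA1, which move basic amino acids into the vacuole, fell by 1.39 and 1.14, with values of 0.32 and 0.57 above the reference under spike-in scaling, neither of which was called.

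**Figure D4:**
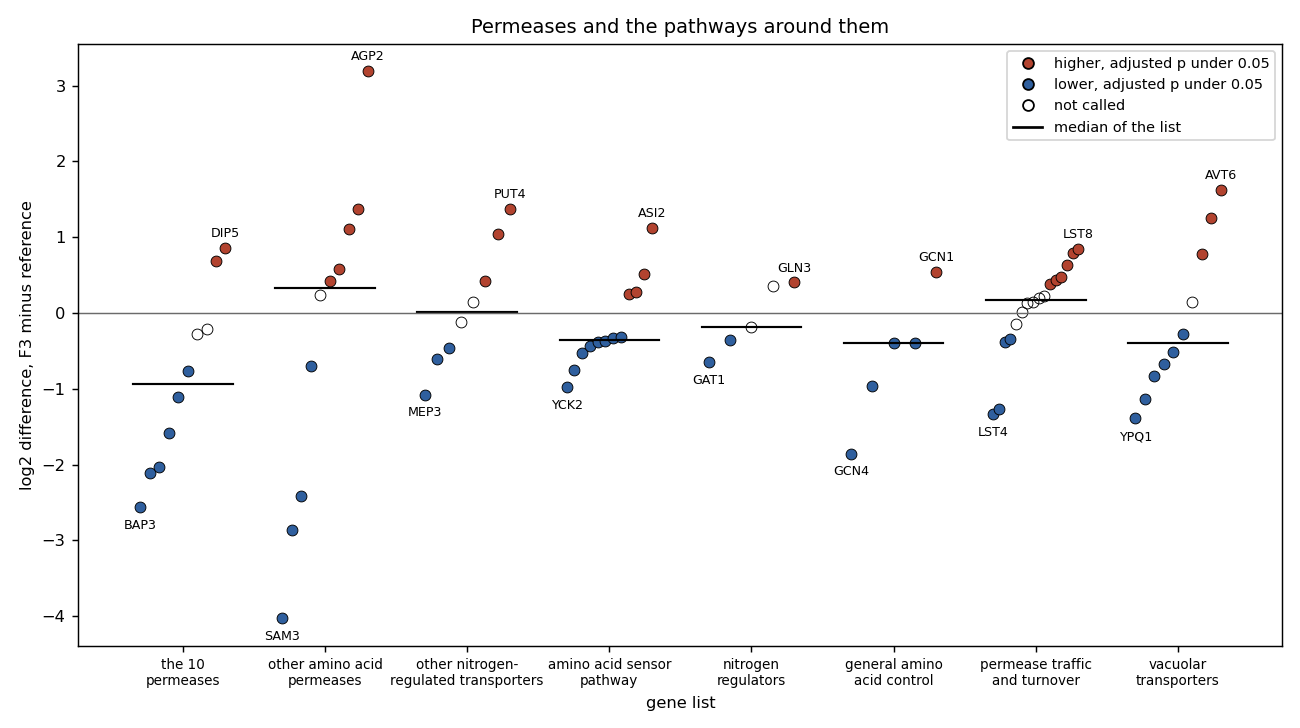
Log2 difference (F3 minus reference) of each tested gene in the permease set and in 7 lists around it, by the 75th percentile scaling; red and blue points passed limma's test as higher or lower, open points did not, and bars are list medians. Members of most lists lie on both sides of 0, with SAM3 (−4.03) and AGP2 (3.19) at the extremes, and values between −1.71 and 0 lie above 0 with spike-in scaling.

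The tested genes whose centred values over the 6 arrays lay nearest to those of DIP5, by Euclidean distance, were EAP1 (0.21), PAU23 (0.23) and RDS2 (0.23). Nearest to BAP3 were ROK1 (0.27), YNL095C (0.29) and NOP15 (0.30). With 2 groups of 3 arrays, such a distance reflects little beyond the size of the difference between strains.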

How the data were processed

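Groups and replicate numbers came from the sample titles. Per the labels' protocols, total RNA was labelled with Cy3 from 0.2 µg; the growth label names an overnight culture in rich medium, and the series design minimal medium. Per the file headers, spots were extracted with Agilent Feature Extraction 10.7.3.1 (9.1 in the submitters' processing notes). The deposited processed signal is an intensity, background-subtracted and detrended within each array per the file headers, with no normalization between arrays. The authors' deposited table holds log2 values centred on each probe's median; its columns correlated with the scanner values at r between 0.988 and 0.993, with column medians of 0.0098, 0 and 0.0110 (F3) and −0.0055, −0.0056 and −0.0141 (reference), and its scaling between arrays stays unknown.

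Each gene had 1 probe spotted 2 times; log2 processed signals of both spots were averaged and the array's 75th percentile subtracted. No gene spot was saturated. Genes with a spot well above background on at least 3 of 6 arrays entered a fit by limma 3.58.1 (R 4.3.3; two-sided, Benjamini-Hochberg over 5948 genes, threshold 0.05). The number of arrays limits the precision. Replicates are separate cultures by the series design. On simulated arrays with the spread of the real genes, 86.6% of genes changed by 1 log2 unit and 65.2% of those changed by 0.5 were recovered. The simulation gave 14 false calls. Only 66 or 67 of 5948 genes were changed at each size, while 79.7% of tested genes were called in the real data. These rates therefore need not hold for the real comparison. Names came from the RefSeq R64 gene table: 5756 by locus tag, 23 by synonym, 477 kept the file's name. The array's genome build and probe sequences are not used here. The permeases and lists were chosen with earlier results of these data known. Named genes are the 10 permeases, all sensor and nitrogen regulator genes, the most changed members of the other lists (up to 5, and up to 2 against the list's main direction), genes of these lists that were not above background, and the 3 genes nearest to DIP5 and to BAP3. AGP3, ALP1 and UGA4 fall outside these rules and were named after their values were seen. Alternatives were background correction, quantile, median and spike-in scaling, spike-in scaling tested without limma's moderation, other filters, the authors' values, blocks for replicate number and slide, and each array left out.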

Additional observations from a re-analysis of the deposited data

How the results depend on the processing

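Each of the 10 permeases was refitted under 16 alternatives, 1 of them chosen after seeing the data (spike-in scaling with each gene's own spread). Of the 159 values so obtained (DIP5 was not tested under the strictest filter), 134 kept their direction and their side of the threshold, 9 newly passed it (TAT1 and CAN1), 5 no longer passed it (BAP2 and TAT2 with spike-in scaling by either error, BAP3 by its own spread) and 11 turned. With spike-in scaling, by either error, GAP1 turned to 0.61, TAT1 to 1.43, CAN1 to 1.49, LYP1 to 0.94 and HIP1 to 0.12. The permeases' median was 0.77, below the median of 1.76 over all tested genes. In that setting 4 permeases were at least 2-fold higher and 0 lower. The share of all tested genes at least 2-fold higher was not counted, so the 4 are no result about the permeases. Limma called 6 higher and 1 (BAP3) lower, against 85.6% and 4.29% of tested genes. Each gene's own spread called 5, all higher, and 0 lower, against 80.0% and 2.91%. The turn follows from the construction of that setting, which adds 1.71 to every gene. With normexp correction all 10 permeases were called, 1 higher and 9 lower, and DIP5 turned to −0.47. Over all tested genes that setting gave 2129 higher and 2489 lower. The cause of the turn of DIP5 was not tested. When genes had to be above background on all 6 arrays, DIP5 was left out, so 1 was higher and the median was −1.10. Without each array in turn the number called was 8 to 9, the number lower 6 to 7 and the median −1.01 to −0.89. The replicate numbers did not pair the arrays, with correlations of −0.15, 0.08 and −0.25 between deviations of same-numbered arrays. With a replicate block 8 permeases were called (2 higher, 6 lower, 5 at least 2-fold lower), as without it, and the median stayed at −0.94. Slide as a random block (correlation 0.0042) left these counts as they were. No slide held arrays of both strains, so this fit cannot separate a slide effect from the strain. Over all genes normexp shifted the median difference by −0.11. Depth is not defined for arrays. DIP5, with 2 of 6 reference spots above background, is the 1 of the 10 permeases with spots not well above background. TAT1 and BAP3, also dim, changed with normexp correction, from −0.28 to −0.57 and from −2.56 to −2.22.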
